A study of Homo sapiens with 12 samples.

Results

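A set of 10 genes of extracellular matrix glycoproteins was followed through ARID1A-knockout HEK-293T cells: TNC, THBS1, THBS2, THBS3, THBS4, SPARC, FN1, FBN1, FBN2 and LAMC1. They were taken by name, 10 of the 60645 gene names in the count tables, and were selected on measured values of these same libraries, with no record of which comparison was used. Their differences are therefore given as a description, without p-values, and their number of calls supports nothing about the group as such. All of the 6 groups came from HEK-293T, a human embryonic kidney line, with ARID1A knocked out; ARID1A is a subunit of BAF, a SWI/SNF complex that moves nucleosomes. The knockout cells overexpressed an empty vector (here no ARID1A), wild-type ARID1A (WT) or ARID1A without its IDR1b segment (ΔIDR1b), and in addition EWS-FLI1, the fusion of EWSR1 with FLI1 that drives most Ewing sarcomas, or another empty vector. The stated treatment was 2 µg of EWS-FLI1 plasmid, left for 48 h. Polyadenylated RNA of 2 libraries per group was sequenced, 12 in all, to ask what IDR1b does in gene regulation by EWS-FLI1. All groups thus carried the same knockout label, with no unedited cells beside them, and these counts do not measure the loss of ARID1A protein. The promoters of the vectors are not given in the sources used here. The labels do not say that the 2 libraries of a group came from separate cultures, so standard errors and p-values measure the spread between these libraries, which may be technical.

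Matrix glycoproteins are secreted proteins that assemble around cells and are bound by receptors such as integrins and syndecans. Fibronectin (FN1), the fibrillins (FBN1, FBN2) and the laminin γ1 chain (LAMC1) build fibres, microfibrils and basement membranes. Tenascin-C (TNC), thrombospondins (THBS1 to THBS4) and SPARC are matricellular proteins, which modulate adhesion, proteolysis and growth factor signalling more than they bear load. HEK-293T is an epithelial-like line grown on plastic, and RNA levels here say nothing of the protein deposited.

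The libraries held between 11702251 and 14445379 counts. ARID1A was measured at 147 to 165 CPM (counts scaled to an equal library size with edgeR's TMM factors) in the 4 libraries without added ARID1A, at 1843 to 2291 CPM in WT and at 2608 to 2879 CPM in ΔIDR1b, so ΔIDR1b libraries also carried more ARID1A RNA than WT libraries. These counts cover the whole gene and do not test the deleted part. FLI1 had at most 2 counts in any empty-vector library and 1689 to 3675 CPM with EWS-FLI1, highest in WT. Its mean with EWS-FLI1 was 1759 CPM in no ARID1A, 3568 CPM in WT and 1897 CPM in ΔIDR1b. Comparisons of states with EWS-FLI1 were thus not made at equal FLI1 RNA. Of 8 marker genes of HEK-293 cells, 7 had a mean of at least 1 CPM. Summed markers of endothelium (5 genes, at most 2.22 CPM) and blood (5 genes, at most 2.16 CPM) were near 0. The 8 fibroblast markers summed to 88.0 to 98.2 CPM in no ARID1A, 93.2 to 118 CPM in WT and 124 to 135 CPM in ΔIDR1b, nearly all of it COL1A1 (73.0 to 105 CPM) and COL3A1 (11.1 to 26.3 CPM). The fibroblast genes COL1A2 and THY1 were at or near 0, COL1A2 at 0 in 11 of 12 libraries and THY1 at most 0.209 CPM. The WT libraries with EWS-FLI1 stood furthest apart from each other, with a chi-square per degree of freedom of 12.1 across genes against 3.02 to 6.13 in the other groups, and the called differences of single genes that rest on them are also given without each. In bulk RNA, fewer cells that express a gene and less RNA per cell cannot be told apart.

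Against no ARID1A, 4 of the 10 genes were called higher in both ARID1A states and with both vectors: TNC, THBS2, FN1 and FBN2. THBS1 and SPARC were called higher in only 3 and 2 of these 4 comparisons. Taken singly, the 4 comparisons called 6.5% to 18.1% of all 20377 tested genes higher. The share of all genes called higher in all 4 was not counted, so nothing is read from this number. THBS2 was tested only through the groups where it is high. TNC and THBS2 went from near-absent RNA to a low level, whereas FN1 and FBN2 moved from an already high level by less than 2.2-fold. THBS3 lay lower than in no ARID1A by up to 0.68 on the log2 scale, most clearly with EWS-FLI1. LAMC1 and FBN1 hardly varied. ΔIDR1b exceeded WT for TNC and FBN2 with either vector, and no gene of the 10 was called between EWS-FLI1 and empty vector in any ARID1A state.

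Tenascin-C is a hexameric glycoprotein of developing and injured tissue that loosens cell adhesion to fibronectin. TNC (chromosome 9, 115019575 to 115118257 on the minus strand, GRCh38) had 1.04 and 0.673 CPM in no ARID1A with the empty vector, and 0.511 and 0.951 CPM with EWS-FLI1, from 6 to 14 counts per library. In WT it had 11.7 and 8.59 CPM with the empty vector and 10.5 and 9.40 CPM with EWS-FLI1. ΔIDR1b libraries gave 16.6 and 16.7 CPM with the empty vector and 17.0 and 18.5 CPM with EWS-FLI1. The 3 states thus formed 3 separate ranges that did not overlap, in the order no ARID1A, WT, ΔIDR1b. The log2 fold change of WT over no ARID1A was 3.55 (SE 0.304, 11.7-fold) with the empty vector and 3.75 (SE 0.324) with EWS-FLI1. That of ΔIDR1b over no ARID1A was 4.26 (SE 0.293, 19.2-fold) and 4.59 (SE 0.309, 24.01-fold). ΔIDR1b exceeded WT by 0.71 (SE 0.210) and 0.84 (SE 0.210) on the log2 scale, with the empty vector and EWS-FLI1. Here and below a gene is called where its Benjamini-Hochberg adjusted p in edgeR's quasi-likelihood test was under 0.05 over the 20377 genes tested, and all 6 of these TNC differences were called. The call of ΔIDR1b over WT with the empty vector was lost without WT replicate 2 (0.51) and without either ΔIDR1b replicate (0.71 in both cases). Without WT replicate 1 or 2 with EWS-FLI1, WT over no ARID1A came to 3.67 or 3.83 and ΔIDR1b over WT to 0.91 or 0.76, all still called.

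Thrombospondin-1, a trimeric activator of latent TGF-β and a ligand of CD36 and CD47, gave a smaller and noisier pattern. THBS1 (chromosome 15, 39581079 to 39599466) had 0.892 and 0.673 CPM in no ARID1A with the empty vector and 1.02 and 1.04 CPM with EWS-FLI1. The WT libraries had 1.93 and 1.64 CPM with the empty vector and 3.01 and 2.12 CPM with EWS-FLI1. ΔIDR1b had 4.02 and 3.07 CPM with the empty vector and 2.48 and 2.99 CPM with EWS-FLI1. Every library with ARID1A lay above every library without it, but the values rest on 9 to 55 counts per library. With the empty vector THBS1 was 2.17 higher on the log2 scale (SE 0.461, 4.49-fold) in ΔIDR1b than in no ARID1A, a call, and 1.18 higher (SE 0.486) in WT, not a call. With EWS-FLI1 both differences were called, 1.31 (SE 0.464) for WT and 1.40 (SE 0.459) for ΔIDR1b. The WT call with EWS-FLI1 was lost in 11 of 20 alternative analyses, for example at 1.04 without WT replicate 1, but not without WT replicate 2 (1.54), and the ΔIDR1b call in 3, between 1.26 and 1.41 on the log2 scale. ΔIDR1b and WT differed by 0.98 (SE 0.416) with the empty vector and 0.09 (SE 0.408) with EWS-FLI1, neither called, the latter being 0.36 without WT replicate 1 and -0.14 without WT replicate 2.

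THBS2, a trimeric relative of THBS1 that binds matrix metalloproteinases and limits angiogenesis, was at the floor without ARID1A. THBS2 (chromosome 6, 169215780 to 169254050, minus strand) had 0 counts in each empty-vector library of no ARID1A, and 0 and 1 counts in those with EWS-FLI1. WT libraries had 7 and 18 counts (0.521 and 1.34 CPM) with the empty vector and 2 and 18 counts (0.151 and 1.36 CPM) with EWS-FLI1. In ΔIDR1b there were 27 and 26 counts (1.97 and 1.86 CPM) with the empty vector and 41 and 39 counts (2.90 and 2.71 CPM) with EWS-FLI1. ΔIDR1b libraries lay close together by vector and all lay above every WT library, whereas the 2 WT libraries of each vector differed several-fold. Against the floor of 3 counts over the group, THBS2 was at least 8.33-fold higher in WT (25 counts against 0) and at least 17.1-fold higher in ΔIDR1b (53 against 0) with the empty vector. With EWS-FLI1 the ratio to the single count of no ARID1A was 17.6 for WT (95% interval 2.82 to 730) and 65.4 for ΔIDR1b (11.4 to 2614), which covers counting error only. None of the 4 libraries without ARID1A and 6 of the 8 with it reached the 0.734 CPM at which the filter on low values works, so THBS2 was tested only through the groups where it is high, and its 4 calls are a description that supports nothing. The WT call with EWS-FLI1 was lost under DESeq2 with all libraries, without WT replicate 2, and without either no ARID1A replicate, but not without WT replicate 1. That with the empty vector was lost without WT replicate 2 or no ARID1A replicate 2. Fitted fold changes over 0 or 1 counts are not given. ΔIDR1b over WT came to 1.03 (SE 0.676) with the empty vector and 1.88 (SE 0.681) with EWS-FLI1, not called, although the latter was called in 10 of the 20 alternatives, among them the one without WT replicate 2, which leaves 2 counts in WT. Without WT replicate 1 it was 1.03 and not called. Exons of THBS2-AS1, on the opposite strand, overlap 31.2% of the exonic bases of THBS2, and counting took no account of strand. Fragments within the overlap were not counted for either gene, and THBS2-AS1 itself had at most 6 counts in any library.

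The pentameric thrombospondins went the other way or showed no steady difference. THBS3 (chromosome 1, 155195588 to 155209051, minus strand), a cartilage and heart matrix protein, had 35.3 and 32.1 CPM in no ARID1A with the empty vector and 33.0 and 32.2 CPM with EWS-FLI1. WT had 25.4 and 25.0 CPM, and 23.5 and 21.2 CPM with EWS-FLI1. ΔIDR1b had 22.4 and 32.2 CPM with the empty vector, which differ widely from each other, and 20.2 and 20.5 CPM with EWS-FLI1. With EWS-FLI1, THBS3 fell by 0.54 (SE 0.157) in WT and by 0.68 (SE 0.157) in ΔIDR1b on the log2 scale, both called. With the empty vector its log2 fold changes of -0.42 (SE 0.154) in WT and -0.30 (SE 0.153) in ΔIDR1b were not called. The WT value was called in 5 of 20 alternatives, between -0.48 and -0.41: upper-quartile scaling, the block within each vector, only the libraries compared, and without either WT replicate with EWS-FLI1. The ΔIDR1b value was -0.59 and called without ΔIDR1b replicate 2. Leaving out WT replicate 2 (-0.47) or no ARID1A replicate 1 (-0.53) or 2 (-0.56) ended the WT call with EWS-FLI1, which held without WT replicate 1 (-0.62). THBS3 shares 29.1% of its exonic bases with MTX1 and THBS3-AS1 on the opposite strand, and MTX1 itself stood at -0.50 (SE 0.166) in ΔIDR1b against no ARID1A with the empty vector (edgeR adjusted p = 0.0193). MTX1 was at -0.16 (SE 0.166) and -0.36 (SE 0.167) in WT and ΔIDR1b with EWS-FLI1, neither called, and its part in the THBS3 values was not tested.

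THBS4 (chromosome 5, 79991311 to 80083287), a tendon and muscle thrombospondin, had 6.24 and 8.30 CPM in no ARID1A with the empty vector and 6.14 and 6.05 CPM with EWS-FLI1. WT had 5.58 and 5.45 CPM, and 3.01 and 3.34 CPM with EWS-FLI1. ΔIDR1b had 5.12 and 3.50 CPM, and 3.40 and 7.44 CPM with EWS-FLI1, a spread in the last group that covers most of the range of the gene. Its 1 call was a fall of WT with EWS-FLI1, by 0.94 (SE 0.321) on the log2 scale, lost in 7 of 20 alternatives, among them each of the 4 that leave out a library compared (between -1.01 and -0.87). The value in ΔIDR1b against no ARID1A with the empty vector, -0.75 (SE 0.302), was not called but passed in 9 of 20 alternatives. That of ΔIDR1b over WT with EWS-FLI1, 0.77 (SE 0.319), passed only without ΔIDR1b replicate 1 (1.23). Exons of THBS4-AS1 on the opposite strand overlap 11.6% of THBS4.

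SPARC (osteonectin; chromosome 5, 151661096 to 151686975, minus strand), a collagen-binding matricellular protein that is abundant in bone and fibroblasts, was scarce in these cells. It had 0.297 and 1.27 CPM in no ARID1A with the empty vector and 1.19 and 0.346 CPM with EWS-FLI1, that is, 4 to 17 counts. WT gave 1.34 and 2.76 CPM, and 2.63 and 3.49 CPM with EWS-FLI1. ΔIDR1b gave 1.39 and 1.29 CPM, and 2.12 and 2.50 CPM with EWS-FLI1. The lowest library with ARID1A lay just above the highest without it. Only the EWS-FLI1 comparisons were called, 1.98 (SE 0.582) for WT and 1.57 (SE 0.590) for ΔIDR1b over no ARID1A on the log2 scale. Without no ARID1A replicate 2 these were 1.35 and 0.95, and neither was called. The WT call also ended without WT replicate 2 (1.76) but not without WT replicate 1 (2.17), and the ΔIDR1b call without ΔIDR1b replicate 1 (1.69) or 2 (1.45). With the empty vector the differences of 1.38 (SE 0.584) in WT and 0.76 (SE 0.605) in ΔIDR1b were not called, that of WT being 2.75 and called without no ARID1A replicate 2.

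Among the structural glycoproteins, fibronectin gave the steadiest step. FN1 (chromosome 2, 215360440 to 215436073, minus strand), the fibre-forming ligand of integrin α5β1, had 187 and 186 CPM in no ARID1A with the empty vector and 172 and 159 CPM with EWS-FLI1. WT had 265 and 291 CPM, and 263 and 299 CPM with EWS-FLI1. ΔIDR1b had 294 and 321 CPM, and 273 and 301 CPM with EWS-FLI1. The 8 libraries with ARID1A, from 263 to 321 CPM, lay apart from the 4 without it, but WT and ΔIDR1b ranges overlapped with EWS-FLI1. The log2 fold change over no ARID1A was 0.57 (SE 0.100) in WT and 0.72 (SE 0.100) in ΔIDR1b with the empty vector, and 0.76 (SE 0.101) and 0.79 (SE 0.101) with EWS-FLI1. All 4 were called and were lost only where a change of at least 1 on the log2 scale was also asked for. The WT value with EWS-FLI1 ran from 0.67 without WT replicate 2 to 0.86 without WT replicate 1. Between ΔIDR1b and WT the differences of 0.15 (SE 0.0992) and 0.03 (SE 0.0992) were not called.

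Fibrillin-2, the microfibril protein that predominates in embryonic tissue, resembled TNC in its order. FBN2 (chromosome 5, 128257909 to 128659185, minus strand) had 57.4 and 51.8 CPM in no ARID1A with the empty vector and 53.4 and 55.7 CPM with EWS-FLI1. WT had 82.8 and 81.8 CPM, and 91.5 and 97.5 CPM with EWS-FLI1. ΔIDR1b had 96.4 and 118 CPM, and 124 and 114 CPM with EWS-FLI1. With either vector the 3 states did not overlap. The log2 fold change over no ARID1A was 0.59 (SE 0.116) in WT and 0.98 (SE 0.115) in ΔIDR1b with the empty vector, and 0.79 (SE 0.116) and 1.12 (SE 0.116, 2.18-fold) with EWS-FLI1, all called. ΔIDR1b over WT came to 0.38 (SE 0.113) and 0.33 (SE 0.112), also called. These last calls were fragile. That with the empty vector was lost in 4 of 20 alternatives, at 0.23 without ΔIDR1b replicate 2, and that with EWS-FLI1 in 11, between 0.27 and 0.38 where a library was left out. Without WT replicate 1 or 2 with EWS-FLI1, WT over no ARID1A came to 0.84 or 0.75, both called, and ΔIDR1b over WT to 0.28, not called, or 0.38, called.

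Fibrillin-1, its close relative in adult elastic tissue and the gene of Marfan syndrome, showed little difference. FBN1 (chromosome 15, 48408313 to 48645721, minus strand) ranged from 68.3 CPM in no ARID1A with EWS-FLI1 to 91.8 CPM in ΔIDR1b with EWS-FLI1. In no ARID1A it had 82.5 and 73.9 CPM with the empty vector and 68.3 and 74.1 CPM with EWS-FLI1, against 70.7 to 75.4 CPM in WT and 81.5 to 91.8 CPM in ΔIDR1b. Its 1 call, 0.28 (SE 0.111) for ΔIDR1b over no ARID1A with EWS-FLI1, was lost in 13 of 20 alternatives, with values down to 0.20 without ΔIDR1b replicate 2. FBN1 in ΔIDR1b over WT with the empty vector, 0.28 (SE 0.111), was not called but passed in 5 of 20 alternatives. LAMC1 (chromosome 1, 183023420 to 183145592), the γ1 chain shared by most laminin trimers, stood at 214 to 258 CPM in no ARID1A, 260 to 277 CPM in WT and 244 to 283 CPM in ΔIDR1b. Its 1 call, 0.27 (SE 0.0967) for WT over no ARID1A with EWS-FLI1, was lost in 16 of 20 alternatives, down to 0.21 with upper-quartile scaling. It was 0.30 and called without WT replicate 1, and 0.24 and not called without WT replicate 2.

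Counted by comparison, and read against the share of all 20377 tested genes called in the same direction, the 10 genes stood as follows. In WT over no ARID1A with the empty vector 4 were higher and 0 lower, where 6.5% of all genes were called higher and 5.19% lower. ΔIDR1b over no ARID1A with the empty vector gave 5 higher and 0 lower, with 16.4% and 16.8% of all genes called. With EWS-FLI1, WT over no ARID1A gave 7 higher and 2 lower (9.72% and 8.36% of all genes), and ΔIDR1b over no ARID1A gave 7 higher and 1 lower (18.1% and 17.9%). For ΔIDR1b over WT 2 were higher and none lower with the empty vector (11.1% and 13.4%), and likewise with EWS-FLI1 (8.48% and 10.1%). All 10 genes passed the filter on low values, THBS2 only through the groups where it is high, and because they were selected on these libraries nothing is read from the shares. With the empty vector the median log2 fold change of the 10 over no ARID1A was 0.58 in WT and 0.74 in ΔIDR1b. Over all genes it was -0.01 and 0.00. THBS2 lay above both medians of the 10 at its bound as well as at its fitted value, so that choice could not move them. With EWS-FLI1 these medians were 0.78 and 0.96, beside -0.02 and 0.02. Comparisons with the same vector share their control libraries, so their values are not independent. With upper-quartile scaling the split over all genes moved from 1324 higher and 1057 lower to 898 and 1381 for WT over no ARID1A with the empty vector. It moved from 1981 and 1703 to 1505 and 2062 with EWS-FLI1, and from 2267 and 2728 to 2791 and 2184 for ΔIDR1b over WT with the empty vector. For ΔIDR1b over WT with EWS-FLI1 it moved from 1727 and 2058 to 1985 and 1733. The 10 genes then gave 4 higher and 1 lower, 5 higher and 2 lower, and 3 higher and 0 lower in both of the last comparisons.

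Per kilobase of exon, LAMC1 was the most abundant of the 10 genes in every group, at a mean of 26.0 to 32.3 CPM per kb, followed by FN1 at 9.63 to 17.9 CPM per kb. THBS3 came next without ARID1A, at 7.29 and 7.05 CPM per kb. In the groups with ARID1A, FBN2 had 6.23 to 8.99 and THBS3 4.4 to 5.91 CPM per kb. The length used holds all exonic bases, also the 29.1% of THBS3 and 0.424% of FBN2 in overlaps, where fragments were not counted. THBS3 is thus understated, and its place beside FN1 and FBN2 is not settled by these values. TNC went from 0.0889 and 0.0758 CPM per kb without ARID1A, close to THBS1, to 1.72 and 1.84 CPM per kb in ΔIDR1b, above THBS4 at 0.936 and 1.18 CPM per kb. Even there TNC RNA remained far below FN1. Across the 12 libraries the log2 levels of TNC ran closest to FBN2 (r = 0.959) and FN1 (r = 0.953), then THBS1 (0.927) and THBS2 (0.895), and opposite to THBS3 (-0.788). These correlations describe 12 points from 6 groups that share the ARID1A states, and carry no test.

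Differences between EWS-FLI1 and the empty vector were not called for any of the 10 genes, which does not show that they were absent. Against the empty vector 0 of the 10 were called by edgeR in no ARID1A (0.0442% of all genes called), WT (0.221%) or ΔIDR1b (0.172%), or in the average over the 3 states (0.466%), and DESeq2 also called 0. At an unadjusted p under 0.05 edgeR gave 0, 1, 1 and 1 of them, beside 643, 1331, 1110 and 1610 of all 20377 tested genes. In the average the log2 fold changes were -0.06 (SE 0.184) for TNC, -0.09 (SE 0.0576) for FN1, 0.11 (SE 0.0659) for FBN2 and -0.22 (SE 0.0901) for THBS3, the gene with the unadjusted p under 0.05. THBS4 in WT stood at -0.80 (SE 0.320) and THBS3 in ΔIDR1b at -0.43 (SE 0.157), the ones that passed unadjusted in those states. The intervals of THBS1, SPARC and THBS2 were wide, for instance 0.52 (SE 0.426) for THBS1 in WT and 0.79 (SE 0.537) for SPARC in ΔIDR1b, so differences of that size could not be resolved at this depth. The effect of EWS-FLI1 did not differ by a call between the states for any of the 10, where 0.0245% (WT minus no ARID1A), 0.0196% (ΔIDR1b minus no ARID1A) and 0% (ΔIDR1b minus WT) of all genes were called. At an unadjusted p under 0.05 edgeR gave 0, 0 and 1 of the 10, beside 884, 702 and 741 of all tested genes, and DESeq2 called 0. The widest of these differences outside THBS2 was that of THBS4 between ΔIDR1b and WT, 1.13 (SE 0.444). FLI1 RNA was unequal between the states, highest in WT, and its part in these differences was not tested.

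**Figure D1:**
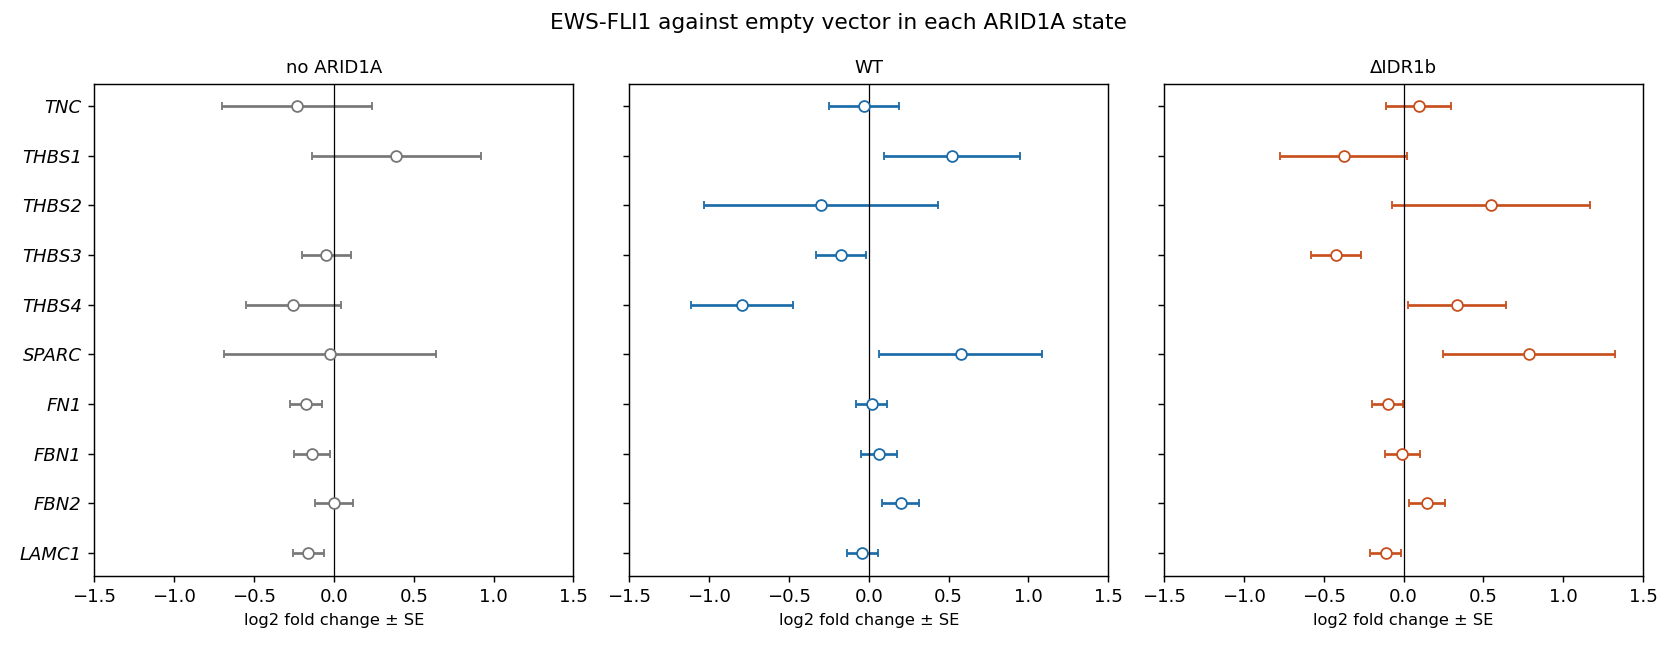
Log2 fold change of EWS-FLI1 against the empty vector, with its standard error, for each gene in the 3 ARID1A states (panels, same scale). All symbols are open because none was called, THBS2 is left out of no ARID1A where it had 1 count in 4 libraries, and the largest sizes are THBS4 in WT (-0.80) and SPARC in ΔIDR1b (0.79).

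The promoters of TNC, FBN2 and FN1 are shown because the RNA of these 3 genes ran together across the states and because EWS-FLI1 is known to bind GGAA repeats. Each is the part, of the 250 bases before the RefSeq start (GRCh38.p14), that lies in no exon of the counted annotation, written in the direction of transcription, with GGAA and its reverse complement TTCC in capitals.
TNC promoter (chr9:115118258-115118407, minus strand): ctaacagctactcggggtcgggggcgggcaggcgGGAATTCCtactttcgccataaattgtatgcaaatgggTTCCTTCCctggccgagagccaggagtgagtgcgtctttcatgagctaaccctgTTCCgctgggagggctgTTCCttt
FBN2 promoter (chr5:128538246-128538495, minus strand): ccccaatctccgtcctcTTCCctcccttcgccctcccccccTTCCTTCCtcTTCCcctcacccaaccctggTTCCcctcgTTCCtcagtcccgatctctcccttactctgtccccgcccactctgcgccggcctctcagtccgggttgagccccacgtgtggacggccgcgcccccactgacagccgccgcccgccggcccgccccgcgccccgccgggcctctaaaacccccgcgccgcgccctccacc
FN1 promoter (chr2:215436074-215436252, minus strand): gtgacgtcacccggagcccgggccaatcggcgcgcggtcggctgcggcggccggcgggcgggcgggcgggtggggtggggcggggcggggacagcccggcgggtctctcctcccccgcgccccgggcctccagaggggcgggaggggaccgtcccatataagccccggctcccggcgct
Over the whole 250 bases and both strands, TNC held 8 copies of GGAA and FBN2 held 6, against a median of 3 in 35116 promoters of the same length, and FN1 held 0, while 92.7% of promoters held at least 1. The tandem GGAAGGAA occurred once in TNC and once in FBN2, and in 3.06% of all promoters, but in none of the other 8 genes; each tandem contains 2 of the GGAA copies counted. TNC, FBN2 and FN1 alike were not called for EWS-FLI1 in any state, and a link between these motif counts and EWS-FLI1 was not tested. The AP-1 motif TGACTCA (4.2% of promoters) was in none of the 10 genes in this window. The TEAD motif GGAATG (11.9%) was in THBS1, THBS2, SPARC and FBN1, and TATAAA (10.7%) in THBS2 alone. The ETS core CCGGAA (14.5%) was in THBS3, THBS4 and SPARC. GGAATG and CCGGAA contain GGAA, so these searches overlap. The windows of all 10 genes were found in RefSeq, THBS3 and THBS4 with 2 starts each, and a match describes letters, not a bound site.

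The rest of the matrix pathway was read from lists of 94 other genes, of which 82 passed the filter. The lists were drawn up with earlier results of these data known. Of the 82, 10 rose and 7 fell in WT over no ARID1A with the empty vector, and 12 rose and 9 fell with EWS-FLI1. In ΔIDR1b over no ARID1A 25 rose and 5 fell with the empty vector, and 23 rose and 7 fell with EWS-FLI1, beside the shares of all genes given above. ΔIDR1b over WT gave 15 higher and 8 lower, and 13 higher and 4 lower. With EWS-FLI1 against the empty vector 0 of the 82 were called in any state or in the average by edgeR or DESeq2. At an unadjusted p under 0.05 edgeR gave 3 in no ARID1A, 9 in WT, 8 in ΔIDR1b and 14 in the average. Over all 20377 tested genes the same limit gave 643, 1331, 1110 and 1610.

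Among 21 tested receptors, 9 rose and 1 fell in ΔIDR1b over no ARID1A with the empty vector, against 3 and 1 in WT. With EWS-FLI1 10 rose and 1 fell, against 5 and 1 in WT. Of all tested genes, 16.4% were called higher and 16.8% lower in ΔIDR1b with the empty vector, against 6.5% and 5.19% in WT. With EWS-FLI1 these shares were 18.1% and 17.9%, against 9.72% and 8.36% in WT. The heparan sulphate proteoglycan SDC4 (syndecan-4), a co-receptor for fibronectin, with the empty vector had 17.5 ± 2.71 CPM (SD, n = 2) in no ARID1A, 46.0 ± 4.72 CPM in WT and 40.7 ± 2.83 CPM in ΔIDR1b. Its log2 fold changes over no ARID1A were 1.39 (SE 0.143, edgeR adjusted p = 2.3e-08) in WT and 1.21 (SE 0.143, adjusted p = 4.3e-08) in ΔIDR1b, and it stayed called in all 20 alternatives, as it did with EWS-FLI1 (1.35 and 1.03, the WT value of SDC4 being 1.34 or 1.38 without WT replicate 1 or 2). The thrombospondin receptor CD47 fell by 0.56 (SE 0.115, edgeR adjusted p = 0.000266) in ΔIDR1b with EWS-FLI1 and by 0.37 (SE 0.115, adjusted p = 0.0132) with the empty vector. The latter ended without no ARID1A replicate 2 (-0.28) or ΔIDR1b replicate 1 (-0.28). The collagen and laminin receptor subunit ITGA2 was 0.87 higher (SE 0.209, edgeR adjusted p = 0.00222) in ΔIDR1b than in WT with the empty vector, a call lost without WT replicate 1 (0.74) or ΔIDR1b replicate 2 (0.69).

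Of 14 tested basement membrane genes, 7 rose and 1 fell in ΔIDR1b with the empty vector, against 3 and 2 in WT. With EWS-FLI1 6 rose and 1 fell, against 2 and 1 in WT, beside the same shares of all genes. Agrin (AGRN), a basement membrane proteoglycan, with the empty vector had 63.1 ± 3.11 CPM (SD, n = 2) in no ARID1A, 96.9 ± 5.47 CPM in WT and 165 ± 3.18 CPM in ΔIDR1b, in the same order as TNC and FBN2. Its log2 fold change was 0.62 (SE 0.128, edgeR adjusted p = 0.00128) in WT over no ARID1A and 0.77 (SE 0.124, adjusted p = 2.49e-05) in ΔIDR1b over WT. With EWS-FLI1 the 2 WT libraries of AGRN spread widely (90.7 ± 25.7 CPM), and WT over no ARID1A was 0.61, or 0.87 and called without WT replicate 1 and 0.29 and not called without WT replicate 2. Laminin α5 (LAMA5) was 0.83 higher (SE 0.109, edgeR adjusted p = 1.1e-06) in ΔIDR1b than in WT with the empty vector and 0.67 higher (SE 0.109, adjusted p = 4.71e-05) with EWS-FLI1. The α3 chain LAMA3 fell with EWS-FLI1 by 0.67 (SE 0.120, edgeR adjusted p = 0.000128) in WT and by 0.54 (SE 0.120, adjusted p = 0.000606) in ΔIDR1b. Both calls in which WT with EWS-FLI1 takes part held without WT replicate 1 or 2, LAMA5 at 0.47 or 0.90 and LAMA3 at -0.62 or -0.73.

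Matrix-processing enzymes and inhibitors, 22 of them tested, went both ways. In WT over no ARID1A 4 rose and 2 fell with the empty vector and 5 rose and 5 fell with EWS-FLI1. In ΔIDR1b 5 rose and 3 fell, and 6 rose and 4 fell, beside the same shares of all genes. The metalloproteinase inhibitor TIMP3 rose by 1.16 (SE 0.109, edgeR adjusted p = 3.01e-09) in WT with the empty vector, from 54.3 ± 0.545 to 122 ± 9.40 CPM (SD, n = 2), and by 1.38 with EWS-FLI1 (1.45 or 1.31 without WT replicate 1 or 2, both called). In ΔIDR1b, TIMP3 had 83.9 and 91.3 CPM with the empty vector and 101 and 103 CPM with EWS-FLI1. These too lay above every library of no ARID1A, at most 54.7 CPM. The membrane-type metalloproteinase MMP15 rose by 1.00 (SE 0.154, edgeR adjusted p = 3.17e-05) in WT and 1.04 (SE 0.154, adjusted p = 2.44e-06) in ΔIDR1b with the empty vector. Lysyl oxidase (LOX), which crosslinks collagen and elastin, fell from 559 ± 10.0 CPM (SD, n = 2) to 264 ± 19.1 CPM in ΔIDR1b with the empty vector, a log2 fold change of -1.09 (SE 0.126, edgeR adjusted p = 3.26e-08). With EWS-FLI1 it was -1.34 (SE 0.127, edgeR adjusted p = 4.22e-10), while its relative LOXL3 rose by 1.05 and 1.03. In WT, LOX fell less, by 0.48 with the empty vector, a call that ended without no ARID1A replicate 1 (-0.49) or 2 (-0.46) or WT replicate 1 (-0.40). ADAMTS1, a protease that cleaves proteoglycans, was lower in ΔIDR1b than in WT by 1.06 (SE 0.0954, edgeR adjusted p = 7.09e-10) with the empty vector and by 1.05 (SE 0.0951, adjusted p = 1.03e-09) with EWS-FLI1, the latter held at -1.04 or -1.06 without WT replicate 1 or 2.

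The elastic fibre list had 13 tested genes. Over no ARID1A, in ΔIDR1b 2 rose and 0 fell with the empty vector and 1 rose and 1 fell with EWS-FLI1. In WT 0 rose and 2 fell with either vector, beside the shares of all genes given for the receptors. EFEMP2 (fibulin-4), which brings LOX to elastin, fell by 0.99 (SE 0.168, edgeR adjusted p = 6.42e-05) in WT and by 0.73 (SE 0.165, adjusted p = 0.000667) in ΔIDR1b with EWS-FLI1, the latter -0.49 and not called without ΔIDR1b replicate 1. The WT call held at -0.86 or -1.14 without WT replicate 1 or 2. Among 10 tested matricellular genes, SPOCK2 (1.73, SE 0.502, edgeR adjusted p = 0.00752) and MATN2 (1.12, SE 0.405, adjusted p = 0.0318) rose in ΔIDR1b with the empty vector. Both calls ended without no ARID1A replicate 2 (1.68 and 0.56) or ΔIDR1b replicate 1 (1.39 and 0.88). The 3 other comparisons with no ARID1A called 0 of the 10 by edgeR, with 0 at an unadjusted p under 0.05 in WT with either vector and 3 in ΔIDR1b with EWS-FLI1. Of the other tenascin and thrombospondin genes (4, of which 2 were tested), edgeR called 0 over no ARID1A, with 2 and 1 at an unadjusted p under 0.05 in ΔIDR1b with the empty vector and EWS-FLI1 and 0 in WT. Over all 20377 tested genes that limit gave 8610 and 9064 in ΔIDR1b and 5251 and 6297 in WT, in the same order of vectors.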

How the data were processed

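Counts of read pairs per gene name were deposited by the authors, 1 table per library. Per the file headers they were made with featureCounts 2.0.1 on GENCODE release 41 (GRCh38), with both ends aligned and no strand option. STAR, SAMtools and edgeR are named in the submitters' processing notes, without versions. The deposited counts are whole numbers with unequal library totals, that is, not normalized. Here, edgeR 4.0.16 (R 4.3.3) filtered genes by filterByExpr (minimum count 10, minimum total 15), scaled libraries by TMM and fitted 1 mean per group over all 12 libraries, which left 20377 genes. There were 13 contrasts, each with a 2-sided quasi-likelihood F-test, adjusted by Benjamini-Hochberg over all tested genes and called at 0.05. The SE is the log2 fold change divided by the square root of F. The procedure was tested on simulated data. A count of 0 allows up to 3 counts, for counting error only. The members, the lists and the motifs were chosen with earlier results of these data known. Of the other lists, up to 2 called genes with the largest rise and 2 with the largest fall per list and comparison could be named, with a mean of at least 1 CPM and no overlap between libraries. In all 20 alternatives were run, among them DESeq2 1.42.0 and leaving out each library. Sequences came from RefSeq.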

Additional observations from a re-analysis of the deposited data

How the results depend on the processing

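Over 20 alternatives the log2 fold changes of the 10 genes gave 2597 values. Of these, 2471 stayed on their side of the threshold, 94 lost a call, 32 gained one and 0 reversed a called direction. The 2597 include the interactions and EWS-FLI1 against the empty vector, where 0 of the 10 were called and no call could be lost. Losses were possible only among the main calls. For the empty vector these were 4 and 5 over no ARID1A (WT, ΔIDR1b) and 2 for ΔIDR1b over WT. EWS-FLI1 libraries gave 9, 8 and 2 in that order. The 94 losses include those caused by the limit of 1 on the log2 scale. When calls also had to reach 1 on the log2 scale, they fell to 2 and 3 (WT and ΔIDR1b over no ARID1A, empty vector), 4 and 5 (the same with EWS-FLI1), and 0 for ΔIDR1b over WT with either vector, by construction. With only the libraries compared, 5 were called for WT over no ARID1A with EWS-FLI1 and 1 for ΔIDR1b over WT with EWS-FLI1, from fewer libraries. Leaving out a library gave 3 to 5 and 5 to 6 calls over no ARID1A with the empty vector, 3 to 9 and 5 to 8 with EWS-FLI1, and 0 to 3 and 1 to 3 for ΔIDR1b over WT, where a lone library was assumed to vary like the other groups.

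The labels number repeats without saying what a number shares. Differences between repeats correlated across 12226 genes at 0.0829 to 0.35 between groups of the same vector and at -0.178 to -0.00178 across vectors. The sign thus followed the vector, and whether equal numbers share a batch within a vector was not tested. The main fit did not pair the samples, and fits with a replicate block are given beside it. With a replicate block over all libraries 4 and 5 were called over no ARID1A for the empty vector, 7 and 8 for EWS-FLI1, and 2 and 3 for ΔIDR1b over WT. With the replicate block within each vector they were 5 and 6, 9 and 8, and 3 and 3. Calls over all genes rose under that block too. Over no ARID1A they went from 2381 to 3606 and from 6778 to 7659 with the empty vector. With EWS-FLI1 they went from 3684 to 4849 and from 7321 to 8157. For ΔIDR1b over WT they went from 4995 to 6121 and from 3785 to 5049. The EWS-FLI1 comparisons and the interactions had 0 of the 10 called in every alternative.

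Counts over all genes moved by more than 1.5 times under some alternatives. For WT over no ARID1A with the empty vector they ran from 521 to 3606 around 2381, and from 908 to 4849 around 3684 with EWS-FLI1. For ΔIDR1b over no ARID1A they ran from 2327 to 8063 around 6778, and from 2570 to 8286 around 7321. For ΔIDR1b over WT they ran from 1393 to 6138 around 4995, and from 1140 to 5049 around 3785. For EWS-FLI1 they ran from 5 to 17 around 9 in no ARID1A, from 24 to 230 around 45 in WT, from 23 to 109 around 35 in ΔIDR1b and from 29 to 316 around 95 in the average. The interactions ran from 4 to 48 around 5, 4 to 6 around 4 and 0 to 26 around 0. Calls of the 82 other matrix genes ran from 3 to 23 around 17 and from 4 to 26 around 21 for WT over no ARID1A with the 2 vectors. They ran from 11 to 34 around 30 and 6 to 36 around 30 for ΔIDR1b over no ARID1A, and from 2 to 27 around 23 and 2 to 22 around 17 for ΔIDR1b over WT. Depth limits THBS2, SPARC, THBS1 and TNC, which had at most 17 counts in any library without ARID1A.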
